A study of Mus musculus with 42 samples.

Results

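The E2f transcription factors and the pocket proteins were examined as a family of 10 genes, E2f1 to E2f8, Rb1 and Rbl1, taken by gene symbol from the 24466 genes of the count files. All 10 members passed the filter on low counts. RNA-seq had been performed on 3 populations of mouse cells. iPax7 myogenic precursors, derived from 1 engineered embryonic stem cell line that expresses Pax7 when doxycycline (Dox) is present, were grown with 0.75 µg/ml Dox (+Dox, 3 libraries) or kept for 3 days after Dox had been washed out (-Dox, 2 libraries). Satellite cells, the resident stem cells of adult muscle, were sorted from muscle of Pax7-ZsGreen reporter mice (3 libraries). The comparisons ask which members change when Dox is withdrawn and how the cultured precursors differ from the tissue stem cell. Dox, Pax7 and the state of differentiation change together on withdrawal, and their parts were not separated.

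E2f factors bind the promoters of genes needed for DNA replication and division. E2f1, E2f2 and E2f3 are known mainly as activators, E2f4 and E2f5 mainly as repressors that work with pocket proteins, E2f6 as a repressor found in Polycomb complexes, and E2f7 and E2f8 as atypical repressors that need no Dp partner. The pocket proteins Rb1 (pRb), Rbl1 (p107) and Rbl2 (p130) bind E2f factors and hold their targets off, and Rb1 is known to be needed for the lasting cell cycle exit of muscle cells.

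Libraries held 39010958 to 54674619 counts on genes. Reads not uniquely placed made up 7.11 to 7.60% of the iPax7 libraries and 23.58 to 30.68% of the satellite libraries. Pax7 itself was at 246 to 299 CPM (counts per 1e6 counts on genes, scaled by the trimmed mean of M-values, TMM) in +Dox cells, at 4.66 and 5.70 CPM in -Dox cells and at 83.0 to 180 CPM in satellite cells. The summed level of 8 myogenic precursor genes, Pax7 among them, was 3970 to 5640 CPM with Dox and 1120 and 1190 CPM without it. In satellite cells it was 15200 to 22300 CPM, of which Sdc4 alone held 10100 to 16600 CPM. Of these 8 genes 6 were called lower and 1 higher in +Dox than in satellite cells (edgeR, adjusted p under 0.05). On withdrawal 3 of the 8 were called lower, 1, Itga7, higher and 4 were not called. Myf5 alone held 2350 to 4020 CPM of the +Dox sum. The summed level of 9 differentiated muscle genes was 224 to 312 CPM with Dox, 41600 and 42600 CPM without it, and 193 to 325 CPM in satellite cells. Of these 9 genes 5 were called higher and 2 lower in +Dox than in satellite cells by edgeR. Their log2 fold changes ran from -6.84 for Ckm to 4.06 for Tnnc1. Satellite libraries also carried 386 to 567 CPM of 8 endothelial genes and 1530 to 2950 CPM of 8 fibro-adipogenic genes, against at most 3.54 and 267 CPM in the iPax7 libraries. They carried 64.6 to 230 CPM of 8 blood genes and 180 to 482 CPM of 8 pluripotency genes (Pou5f1, Nanog and Zfp42 were at 0), against at most 9.97 and 6.84 CPM. Klf4 alone was at 191, 180 and 482 CPM in the satellite libraries, and no other gene of the pluripotency list exceeded 0.0558 CPM there. Cdh5, Kdr and Cldn5 of the endothelial list were at 0 in every +Dox library. Nothing in the labels says that libraries came from separate cultures or animals, so p-values measure only the spread between these libraries. In bulk samples such as these, fewer cells of a type and less RNA per cell cannot be told apart.

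Promoter sequences are shown first, for the members in which an E2f octamer was found. RefSeq promoter windows (GRCm38.p6, 250 bases before to 50 bases after the start site) were at hand for 7 of the 10 members, E2f1, E2f2, E2f3, E2f6, E2f7, E2f8 and Rbl1, as 9 windows. They were searched on both strands for the E2f octamers TTTCCCGC, TTTCGCGC, TTTGCCGC and TTTGGCGC, which do not contain one another. One or more octamers stood in 4 of the 9 windows, against 2.26% of all 32851 promoter windows. G and C made up 54.7 to 78.7% of the 9 windows, against a median of 52.7% for all promoters. The part of this difference in the octamer shares was not tested. The octamer is in capitals below, written 5′ to 3′ on the strand of the gene.
E2f2, 5′ of 2 windows: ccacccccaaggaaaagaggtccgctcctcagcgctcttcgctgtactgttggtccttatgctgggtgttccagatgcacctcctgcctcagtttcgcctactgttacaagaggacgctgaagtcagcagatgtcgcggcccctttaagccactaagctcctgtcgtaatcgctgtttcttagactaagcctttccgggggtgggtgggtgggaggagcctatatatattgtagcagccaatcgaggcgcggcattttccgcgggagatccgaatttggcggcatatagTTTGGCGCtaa
E2f3, 5′ of 2 windows: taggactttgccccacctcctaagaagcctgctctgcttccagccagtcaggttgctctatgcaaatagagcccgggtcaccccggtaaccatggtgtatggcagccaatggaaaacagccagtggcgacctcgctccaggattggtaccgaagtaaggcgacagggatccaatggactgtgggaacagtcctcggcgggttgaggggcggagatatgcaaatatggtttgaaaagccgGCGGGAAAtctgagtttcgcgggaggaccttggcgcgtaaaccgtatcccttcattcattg
E2f7: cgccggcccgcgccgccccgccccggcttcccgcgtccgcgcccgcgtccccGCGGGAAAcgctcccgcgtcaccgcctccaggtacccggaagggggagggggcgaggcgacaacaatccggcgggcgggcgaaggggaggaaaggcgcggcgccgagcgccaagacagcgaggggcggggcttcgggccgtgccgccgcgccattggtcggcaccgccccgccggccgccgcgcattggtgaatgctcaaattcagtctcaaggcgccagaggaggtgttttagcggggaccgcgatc
Rbl1: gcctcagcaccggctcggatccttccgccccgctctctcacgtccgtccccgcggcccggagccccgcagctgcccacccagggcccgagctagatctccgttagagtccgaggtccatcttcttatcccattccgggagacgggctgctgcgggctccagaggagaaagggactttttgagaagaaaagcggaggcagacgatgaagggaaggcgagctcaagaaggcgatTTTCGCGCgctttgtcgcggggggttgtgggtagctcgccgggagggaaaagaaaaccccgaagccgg
In the E2f2 window (chr4:136172024-136172323, plus strand) TTTGGCGC began 39 bases after the start site. In E2f3 (chr13:29986014-29986313, minus strand) TTTCCCGC lay on the opposite strand, from 11 bases before the start. In E2f7 (chr10:110745189-110745488, plus strand) the same octamer, also on the opposite strand, began 198 bases before the start. In Rbl1 (chr2:157204485-157204784, minus strand) TTTCGCGC began 18 bases before it. TTTCCCGC was found in 1.07% of all windows, TTTCGCGC in 0.323% and TTTGGCGC in 0.514%. The windows of E2f1, E2f6 and E2f8 held none of the 4 octamers, as did the other windows of E2f2 and E2f3. In mm9 the E2f1 window (chr2:154395113-154395412, minus strand) lay inside the E2f1 gene of the GENCODE M1 annotation, whose 5′ end is at 154395628. Bases before that 5′ end were therefore not searched for E2f1. The cell cycle homology hexamer TTTGAA, a motif known from promoters of genes expressed late in the cycle, was present in 3 of the 9 windows (E2f2, E2f3 and E2f8) and in 17.9% of all windows. In E2f8 it began 20 bases before the start. These matches describe the letters of the windows, and binding of a factor was not measured.

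Withdrawal of Dox moved 3 of the 10 members past the test, E2f7 and E2f3 down and Rb1 up. Across all 14836 genes tested, 3.04% were called lower and 4.66% higher (quasi-likelihood test of edgeR, p-values adjusted by the Benjamini-Hochberg method, adjusted p under 0.05). Scaling by total counts without TMM called 570 genes higher and 610 lower in place of 691 and 451, with the median change of all genes at -0.22 in place of 0.

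E2f7, an atypical E2f that represses E2f target genes, was at 35.8, 29.8 and 18.4 CPM in the +Dox libraries and at 1.65 and 0.57 CPM in the -Dox libraries. The groups did not overlap, and the lowest +Dox library was far above either -Dox library. E2f7 was 25.2-fold lower without Dox, with a log2 fold change of -4.65 ± 0.68 (SE) and an adjusted p of 0.00318 by edgeR. Mean levels were 28.0 ± 8.80 (SD, n = 3) and 1.11 ± 0.768 CPM (SD, n = 2). The log2 fold change was -5.62 without the first -Dox library and -4.07 without the second.

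E2f3, an activator, was at 26.8, 23.4 and 28.2 CPM with Dox and at 8.05 and 7.81 CPM without it. Replicates lay close together in both groups. The log2 fold change was -1.72 ± 0.398 (SE), a 3.29-fold fall, with an adjusted p of 0.0304 by edgeR. The call was lost when any 1 of the 5 iPax7 libraries was left out, at adjusted p from 0.0596 to 0.223, while the log2 change stayed between -1.78 and -1.66.

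Rb1, the retinoblastoma protein gene, moved the other way. It was at 17.9, 17.5 and 19.0 CPM in +Dox cells and at 86.7 and 94.8 CPM in -Dox cells. Replicates differed little and the groups were far apart. Rb1 rose 5.01-fold, with a log2 fold change of 2.33 ± 0.287 (SE) and an adjusted p of 0.00144 by edgeR. The rise moved with the differentiated muscle genes given above, whose part in it was not tested. In the GENCODE M1 annotation 8.11% of the Rb1 exon bases overlap Rcbtb2 and 6.78% overlap Lpar6, both on the opposite strand, and the sources used here do not state whether counting used strand.

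The other members did not pass the test on withdrawal. E2f1, an activator, was at 13.4, 8.49 and 8.82 CPM with Dox and at 4.31 and 2.62 CPM without it (log2 fold change -1.56 ± 0.969 SE, adjusted p = 0.407, edgeR). Rbl1, which encodes p107, was at 16.4, 14.5 and 18.4 CPM with Dox and at 4.99 and 1.46 CPM without it (-2.35 ± 1.14 SE, adjusted p = 0.273, edgeR). In both genes every -Dox library lay below every +Dox library. The groups also did not overlap for E2f4, E2f5 and E2f8, and the share of all genes without overlap was not counted. The -Dox libraries themselves differed widely for Rbl1. With the 2 iPax7 groups fitted alone the adjusted p of Rbl1 was 0.0305.

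E2f8, the second atypical E2f, was at 11.3, 6.19 and 6.43 CPM with Dox and at 15.1 and 16.5 CPM without it (log2 fold change 0.98 ± 0.763 SE, adjusted p = 0.53, edgeR). Both -Dox libraries lay above the +Dox range, as they did for E2f4.

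E2f4 was at 21.7, 22.7 and 30.0 CPM with Dox and at 36.4 and 32.2 CPM without it, and E2f6 was at 39.5, 37.5 and 32.2 against 45.3 and 26.0 CPM. E2f2 was at 13.2, 14.0 and 6.34 CPM with Dox and at 7.00 and 12.0 CPM without it. E2f5 was at 8.15, 8.68 and 7.03 CPM with Dox and at 6.84 and 2.48 CPM without it. For these 4 genes the log2 fold changes lay between -0.77 and 0.47, with adjusted p of 0.48 to 1 by edgeR.

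**Figure D1:**
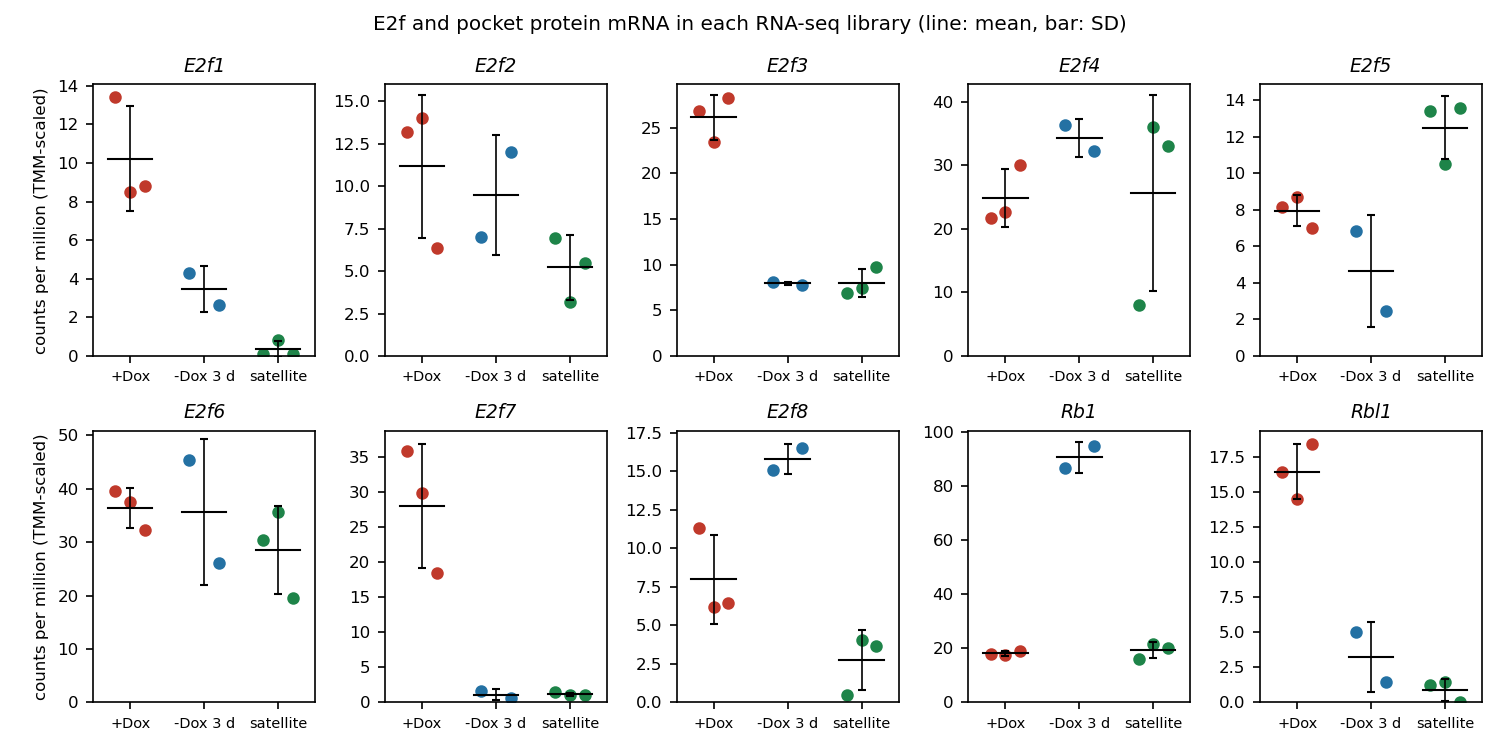
TMM-scaled CPM (y axis, from 0) of the 10 members in each RNA-seq library, by group on the x axis (+Dox, n = 3; -Dox 3 d, n = 2; satellite, n = 3). Points are libraries, lines are means and bars are SD. E2f7 and E2f3 are high in the +Dox libraries alone, Rb1 is at 86.7 and 94.8 in the -Dox libraries against at most 21.6 elsewhere, and E2f4 has 1 satellite library at 7.99.

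Compared with satellite cells, +Dox cells had more mRNA of 4 members, E2f1, E2f3, E2f7 and Rbl1. By edgeR none was called lower, also at an unadjusted p under 0.05, where the count was 0, as it was by DESeq2. Of all 14836 genes 19.8% were called higher and 25.1% lower in this comparison. Scaling by total counts alone changed these numbers from 2940 higher and 3717 lower to 3863 and 2967, and moved the median change of all genes from -0.17 to 0.2. It also called 6 members higher in place of 4, adding E2f2 (log2 fold change 1.5, adjusted p = 0.0457, edgeR) and E2f8 (1.95, adjusted p = 0.0489, edgeR). The comparison shares its +Dox libraries with that on withdrawal.

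E2f1 was nearly absent from satellite cells, with 0.11, 0.82 and 0.08 CPM, which rest on 4, 29 and 3 counts. Against the 10.2 ± 2.77 CPM (SD, n = 3) of +Dox cells the log2 fold change was 4.91 ± 0.978 (SE, adjusted p = 0.00333, edgeR). Without the second satellite library, which held 29 of these counts, it was 6.68, and without the first or the third it was 4.49 or 4.45. E2f7 was at 1.42, 1.08 and 1.06 CPM in satellite cells, 23.6-fold below +Dox cells (log2 fold change 4.56 ± 0.568 SE, adjusted p = 0.000263, edgeR). These satellite values overlapped those of -Dox cells.

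E2f3 was at 6.85, 7.45 and 9.76 CPM in satellite cells, which spans the -Dox values, and +Dox cells were 3.25-fold higher (log2 fold change 1.70 ± 0.344 SE, adjusted p = 0.00358, edgeR). Rbl1 was at 1.22, 1.45 and 0.03 CPM in satellite cells, and the log2 fold change was 4.19 ± 1.06 (SE, adjusted p = 0.0108, edgeR). Calls of these 4 genes held when any 1 library was left out.

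Rb1 was at 15.9, 21.6 and 20.2 CPM in satellite cells, a range that contains the +Dox values (log2 fold change -0.09 ± 0.258 SE, adjusted p = 0.813, edgeR). E2f5, which acts with p130, was at 13.4, 10.5 and 13.6 CPM, above every iPax7 library, and did not pass the test against +Dox cells (-0.65 ± 0.478 SE, adjusted p = 0.293, edgeR). E2f4 differed widely among satellite libraries, at 7.99, 36.0 and 33.0 CPM. E2f8 was also lowest in the first of these libraries, at 0.50 against 4.08 and 3.68 CPM. E2f2 was at 6.96, 3.20 and 5.49 CPM and E2f6 at 30.3, 35.7 and 19.6 CPM, both overlapping +Dox cells. The log2 fold changes of E2f2, E2f4, E2f6 and E2f8 against satellite cells were 1.09, -0.05, 0.35 and 1.53, with adjusted p of 0.105 to 0.947 by edgeR.

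Compared with satellite cells, -Dox cells had more mRNA of 3 members, E2f1, E2f8 and Rb1. By edgeR none was called lower, while 1 member, E2f5, was lower at an unadjusted p under 0.05 and by DESeq2. Of all genes 18.1% were called higher and 20.9% lower. Rb1 was 4.72-fold higher (log2 fold change 2.24 ± 0.287 SE, adjusted p = 0.000396, edgeR). E2f1 was 10.2-fold higher (3.35 ± 0.96 SE, adjusted p = 0.0216, edgeR) and E2f8 5.72-fold higher (2.52 ± 0.778 SE, adjusted p = 0.0292, edgeR). The log2 fold change of E2f1 was 5.11 without the second satellite library, and 2.88 to 3.71 when any other library was left out. Without the first -Dox library the adjusted p was 0.0992 for E2f1 and 0.0935 for E2f8, and without the second it was 0.101 for E2f8. With -Dox and satellite cells fitted alone the values were 0.0863 and 0.0538. E2f3 and E2f7, the genes that fell on withdrawal, had log2 fold changes of -0.02 ± 0.375 and -0.10 ± 0.562 (SE) against satellite cells. E2f5 was 2.68-fold lower in -Dox than in satellite cells and missed the test (-1.42 ± 0.56 SE, adjusted p = 0.0696, edgeR). E2f2, E2f4, E2f6 and Rbl1 had log2 fold changes of 0.87, 0.42, 0.32 and 1.84, with adjusted p of 0.182 to 0.571 by edgeR. In each comparison against satellite cells all 8 endothelial genes were called lower by edgeR. So were 5 of 7 blood genes tested, 6 of 8 fibro-adipogenic genes, and Klf4 of the pluripotency list. Ly6a of the fibro-adipogenic list was not called, at log2 fold changes of 0.95 in +Dox and -0.89 in -Dox cells. The part of these lists and of Klf4 in the member differences was not tested.

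**Figure D2:**
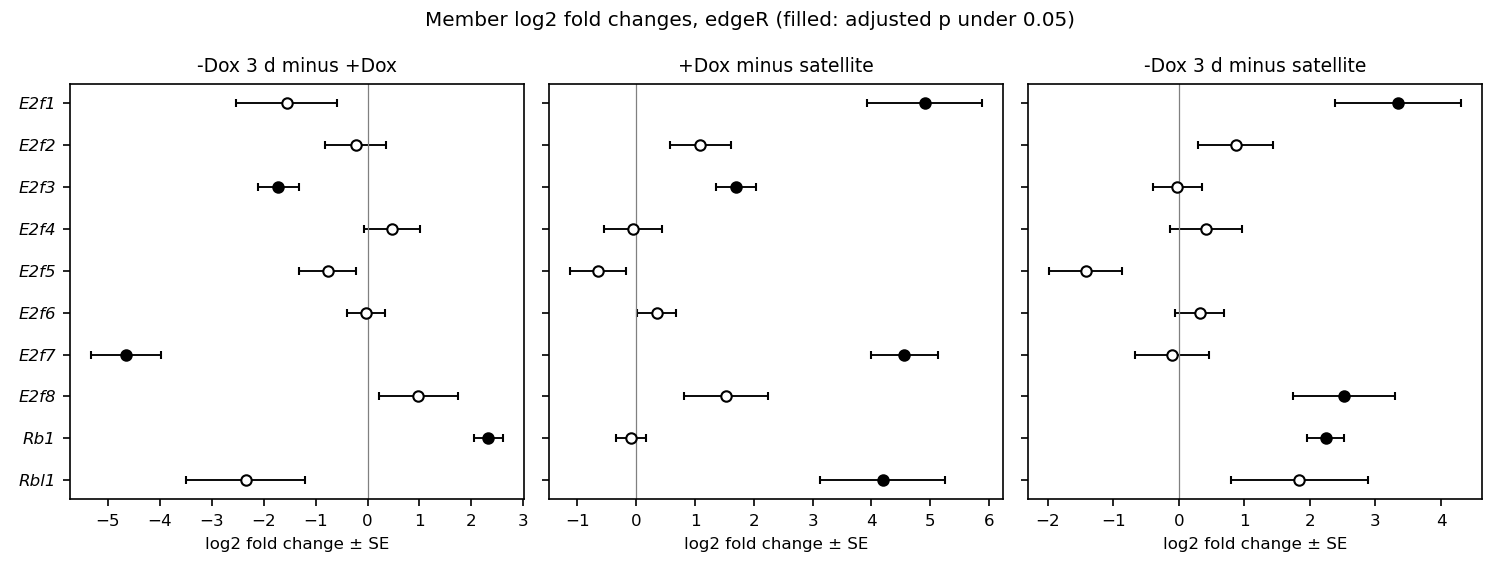
Log2 fold change with its standard error (x axis) of each member in the 3 comparisons, from edgeR's quasi-likelihood fit of all 8 libraries. Filled points have an adjusted p under 0.05, and open points do not. E2f7 is at -4.65 on withdrawal and at 4.56 for +Dox against satellite cells, and Rb1 is at 2.33 and 2.24 in the comparisons that involve -Dox cells.

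Levels were set against each other after division by the union exon length of each gene, as TMM-scaled CPM per kb. In +Dox cells E2f6 (14.8 ± 1.54, SD, n = 3) and E2f4 (12.4 ± 2.27) were highest and overlapped each other. E2f3 (5.45 ± 0.515) and E2f5 (4.55 ± 0.482) followed, and the other members lay between 3.24 for E2f1 and 1.46 for E2f8, each overlapping its neighbour in the order. The order can depend on the length used, since E2f7 has 9009 union exon bases and 5473 bases in its longest transcript. In -Dox cells Rb1 was second by mean at 15.1 ± 0.952 CPM per kb (SD, n = 2), between E2f4 at 17.2 ± 1.49 and E2f6 at 14.5 ± 5.56. E2f6 (10.6 and 18.5) spanned the values of both, and in the first -Dox library it lay above them. E2f7 was then last at 0.123 ± 0.0851. In satellite cells E2f4 (12.9 ± 7.72, SD, n = 3), E2f6 (11.6 ± 3.34) and E2f5 (7.15 ± 0.993) led, and E2f8, Rbl1, E2f7 and E2f1 formed an overlapping group from 0.506 down to 0.107 CPM per kb.

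On this scale the activators E2f1, E2f2 and E2f3 made up 25.0, 22.4 and 22.0% of the summed E2f mRNA in +Dox cells. They made up 9.32 and 13.6% in -Dox cells and 10.6, 5.89 and 8.78% in satellite cells. The atypical pair E2f7 and E2f8 took 7.10 to 12.0% with Dox, 6.15 and 8.54% without it and 0.919 to 2.18% in satellite cells. With the longest transcript length in place of the union exon length the pair took 10.6 to 17.5%, 8.78 and 12.0%, and 1.43 to 3.23%. The summed level of the 8 E2f genes itself was 45.4 to 50.2 CPM per kb with Dox, 48.1 and 36.2 without it and 27.2 to 42.0 in satellite cells.

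The 3 populations differed in which pocket protein mRNA they held. Rb1 was 41.7, 44.8 and 47.3% of the summed Rb1, Rbl1 and Rbl2 level in +Dox cells, with Rbl1 at 37.2 to 46.0% and Rbl2 at 6.63 to 20.0%. In -Dox cells Rb1 alone was 91.0 and 97.0%. In satellite cells Rb1 was 58.0 to 63.8% and Rbl2 31.9 to 40.7%, while Rbl1 was at most 4.47%. The summed pocket protein level was 6.50 to 7.14 CPM per kb with Dox, 15.8 and 16.3 without it and 4.56 to 5.68 in satellite cells. These shares are descriptions and were not tested.

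**Figure D3:**
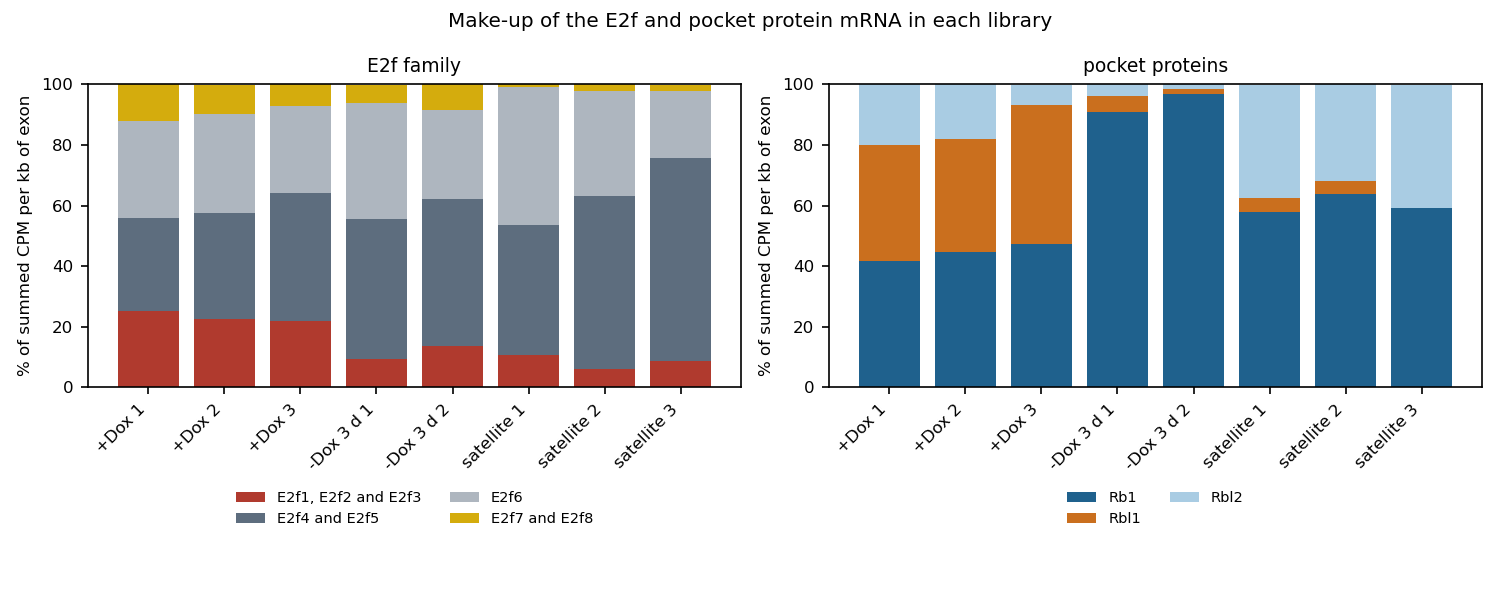
Share of each class in the summed TMM-scaled CPM per kb of exon (y axis, 0 to 100%) in each of the 8 libraries, for the E2f family on the left and the pocket proteins on the right. The activator share is 22.0 to 25.0% in +Dox libraries and at most 13.6% in the others, and Rb1 makes up 91.0 and 97.0% of pocket protein mRNA in the -Dox libraries.

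The Dp partners and the third pocket protein did not pass on withdrawal by edgeR. Rbl2 (p130), a pocket protein of resting cells, was at 9.96, 8.13 and 3.08 CPM in +Dox, 4.12 and 1.74 in -Dox and 11.9, 12.5 and 16.1 CPM in satellite cells. It was 4.60-fold lower in -Dox than in satellite cells (log2 fold change -2.20 ± 0.682 SE, adjusted p = 0.0293, edgeR). Rbl2 shares 9.95% of its exon bases with Aktip on the opposite strand. Tfdp1, the main dimer partner of E2f1 to E2f6, was at 157, 157 and 133 CPM in +Dox, 72.1 and 75.1 in -Dox and 47.7, 93.7 and 101 CPM in satellite cells. It was 1.84-fold higher in +Dox than in satellite cells (0.88 ± 0.302 SE, adjusted p = 0.0389, edgeR). Tfdp2, the second Dp gene, was at 36.6, 21.6 and 23.6 CPM in +Dox and at 68.4 and 87.8 CPM in -Dox cells, and was 6.57-fold higher in -Dox than in satellite cells (2.72 ± 0.501 SE, adjusted p = 0.00261, edgeR). On withdrawal the adjusted p of Tfdp2 was 0.0989, that of Tfdp1 0.115 and that of Rbl2 0.304 (edgeR). DESeq2 called 1 of the 3 on withdrawal, Tfdp2.

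Of 40 classic E2f target genes of the G1/S transition, 23 were called lower on withdrawal by edgeR. None was called higher, with 0 at an unadjusted p under 0.05 and 0 by DESeq2, which called 34 lower. Their median log2 fold change was -2.54, against 0 for all genes, and every one of the 40 had a negative value, from -4.01 to -0.19. Ccna2, which encodes cyclin A2, averaged 1.15 CPM without Dox and 18.5 CPM with it (log2 fold change -4.01 ± 1.02 SE, adjusted p = 0.0433, edgeR). Pole, the catalytic subunit of DNA polymerase epsilon, had a value of -3.79 and did not pass (adjusted p = 0.0941, edgeR). Rpa2, a subunit of the single-strand binding protein, and Rrm1, the large ribonucleotide reductase subunit, moved least, with values of -0.63 and -0.19 that did not pass. Against satellite cells 31 of the 40 were higher and 2 lower in +Dox cells, with a median of 3.06, and 9 were higher and 7 lower in -Dox cells, with a median of 0.40.

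Of 20 mitotic genes 18 were called lower on withdrawal, with a median log2 fold change of -3.75. Their summed level was 2810 to 2880 CPM with Dox, 223 and 224 CPM without it and 71.1 to 124 CPM in satellite cells. Bub1b, a spindle checkpoint kinase gene, fell from a mean of 84.8 to 2.30 CPM (adjusted p = 0.00598, edgeR), Kif11, a spindle motor, from 64.4 to 3.03 CPM (adjusted p = 0.0433), and Cdk1 from 288 to 29.9 CPM (adjusted p = 0.0261). Nek2, a centrosome kinase gene, had a value of -1.83 and did not pass (adjusted p = 0.379). All 20 were higher in +Dox than in satellite cells.

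Among 9 G1 cyclin and Cdk genes, Ccne2 and Ccne1, the cyclin E genes, fell on withdrawal with log2 fold changes of -3.64 ± 0.546 and -2.96 ± 0.49 (SE, adjusted p = 0.00358 and 0.00604, edgeR). By edgeR none rose, with 0 higher at an unadjusted p under 0.05 and 0 by DESeq2. The cyclin D genes Ccnd2 and Ccnd3 had values of 0.50 and 0.61 that did not pass. The median of the list was -0.19. Against satellite cells 7 of these 9 genes were higher in +Dox and 6 in -Dox cells.

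Of 7 Cdk inhibitor genes, only Cdkn1a (p21) passed on withdrawal, from a mean of 235 to 916 CPM (log2 fold change 1.96 ± 0.253 SE, adjusted p = 0.00178, edgeR). Cdkn2d, Cdkn1c and Cdkn2b had values of -0.68, -0.33 and 0.37, and the median of the list was -0.01.

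Of 9 subunits of the MuvB core and its activating partners, 2 were called lower on withdrawal, with a list median of -1.22. Mybl2, which encodes B-Myb, fell from a mean of 7.65 to 0.302 CPM (-4.65 ± 0.919 SE, adjusted p = 0.0147, edgeR). The other was Foxm1, named here after its values were seen, at a log2 fold change of -2.27. The core subunits Lin52 and Lin37 had values of 0.48 and 0.86 that did not pass, and Myb had no count in either -Dox library and averaged 0.345 CPM in +Dox cells. None of 10 subunits of the Polycomb complex that contains E2f6 passed by edgeR, with values from -0.84 for Cbx3 to 0.54 for Rybp and a median of -0.51. Of these 10, 1 had an unadjusted p under 0.05, and DESeq2 called 0 of them.

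**Figure D4:**
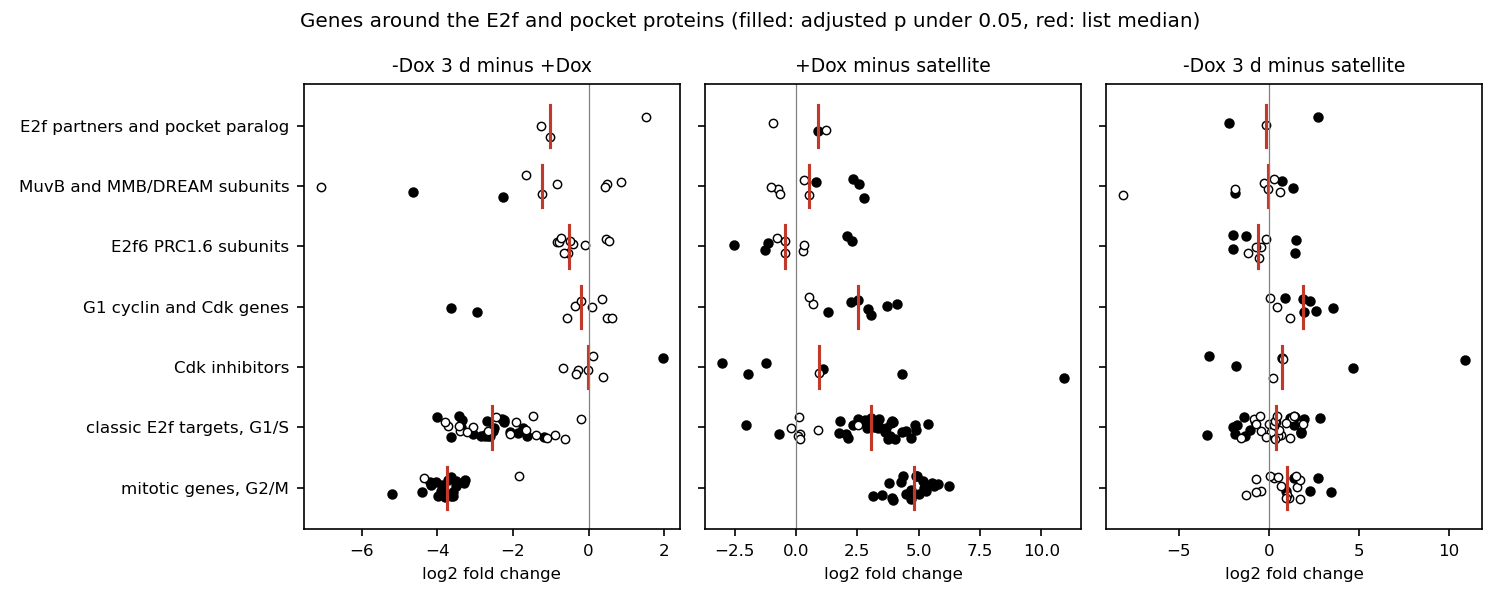
Log2 fold changes (x axis) of the genes in 7 lists around the E2f and pocket proteins (y axis), in the 3 comparisons. Each point is a gene, filled where the adjusted p was under 0.05 by edgeR, and red lines are list medians. Medians of the E2f target and mitotic lists are -2.54 and -3.75 on withdrawal and 3.06 and 4.79 for +Dox against satellite cells.

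For each member the 3 genes with the closest profile over the 8 libraries were listed by Pearson correlation of log2 CPM. These values are descriptions over libraries that fall into 3 groups and were picked from all genes tested. E2f7 was followed most closely by Lin9 (r = 0.991), Galnt7 and Fanca, and E2f3 by Cdc20 (r = 0.993), Gm10377 and Ckap2l. Lin9 is a MuvB subunit, Fanca a DNA repair gene and Cdc20 an activator of the anaphase promoting complex. The correlation does not compare the size of changes. On withdrawal Lin9 had a log2 fold change of -0.84 that did not pass, against -4.65 for E2f7. Rb1 was followed by Fsd2, 2310002L09Rik and Klhl31 (r = 0.995 to 0.996). E2f1 was followed by Agk, Melk and Tkt, and Rbl1 by Bex2, Fzr1 and Mms22l. For E2f8 the closest were Ssx2ip, Lipt1 and Srprb (r = 0.987 to 0.991). E2f4 (Gm14057, Cct3 and Selt), E2f5 (Trim62, Tmem255a and Rnf144a), E2f2 (Hltf, Gprasp1 and Tagap) and E2f6 (Maml3, Zfp866 and Dph1) had values from 0.941 to 0.993.

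Open chromatin and histone marks at the members were then described from peak sets in mm9 coordinates. Each condition was 1 peak set called on merged replicates, or for Pax7 1 list of sites, so there is no replicate error and no test. In GENCODE M1, E2f7 is annotated at chr10:110182495-110224440 (plus strand), E2f3 at chr13:29998444-30077537 (minus), Rb1 at chr14:73583480-73725629 (minus), E2f1 at chr2:154385143-154395628 (minus), E2f8 at chr7:56121799-56136966 (minus) and Rbl1 at chr2:156971629-157030270 (minus). A promoter was counted as marked when a peak lay within 1000 bases of an annotated protein-coding start site.

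All 10 members had a promoter ATAC-seq peak in all 6 conditions, including satellite cells, against 58.4 to 65.4% of 22359 protein-coding genes. All 10 also had H3K4me3 and H3K4me1, marks of promoters and their flanks, with and without Dox. Promoter H3K4me3 was found at 60.3 and 65.9% of coding genes with and without Dox, and H3K4me1 at 61.6 and 64.8%. Fold enrichment of the strongest E2f7 promoter peak was 31.1 in +Dox cells, 25.3 at 12 h, 49.6 at 24 h and 43.7 at 3 d after Dox removal, 19.6 in iPax7 myotubes and 27.9 in satellite cells. Its percentile among coding genes with a promoter peak was 63.7 with Dox and 77.9 at 3 d, while its mRNA was 25.2-fold lower at 3 d. The Rb1 promoter peak stood at 25.7 with Dox and 25.0 at 3 d, in percentiles 56.0 and 55.9, while its mRNA was 5.01-fold higher at 3 d.

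E2f3 had the highest promoter enrichment of the members in 5 of the 6 conditions, at 93.5 in +Dox and 76.7 in satellite cells. In myotubes E2f5 led with 62.2 against 51.2 for E2f3. E2f2 varied most. Its strongest peak, chr4:135735811-135737649 in +Dox cells, had an enrichment of 60.0 with Dox, 31.0 at 3 d, 14.0 in myotubes and 5.08 in satellite cells, in percentiles 87.9, 64.6, 42.3 and 12.1. Rbl1 had a weak promoter peak throughout, at 4.53 to 7.40, and E2f6 was at 6.31 to 9.56. The 4 promoter windows shown above matched mm9 at 1 place each. The E2f3, E2f7 and Rbl1 windows overlapped an ATAC-seq peak in every condition, with enrichments of 46.7 to 93.5, 19.6 to 49.6 and 4.53 to 7.40. The E2f2 window had none at 12 h and in myotubes and at most 4.99 elsewhere.

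**Figure D5:**
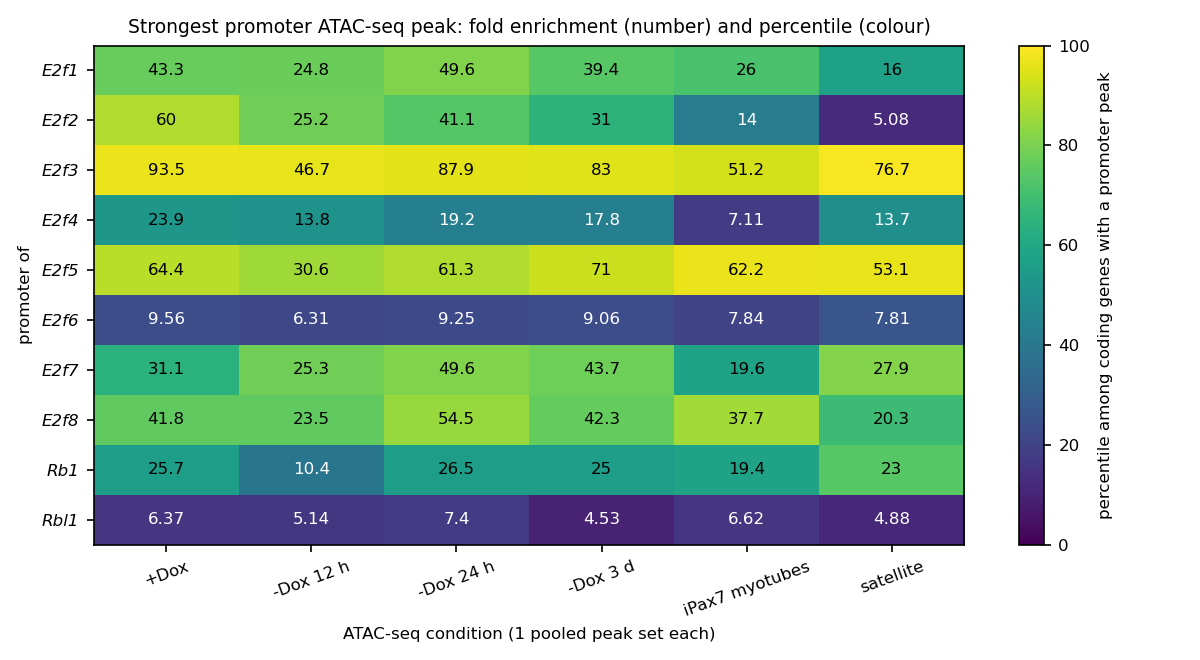
Strongest ATAC-seq peak within 1000 bases of a start site of each member (rows) in 6 conditions (columns), each 1 pooled peak set. Numbers are fold enrichment and colours are the percentile among coding genes with a promoter peak. E2f3 is at percentile 93.7 or above throughout, and E2f2 runs from 87.9 with Dox to 12.1 in satellite cells.

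E2f8 was the only member with the repressive mark H3K27me3 at its promoter, found at 21.8% of coding genes with Dox and 19.9% without it. The longest such region was chr7:56137171-56140559 (3389 bases) in +Dox cells and chr7:56137250-56137857 (608 bases) in -Dox cells. The whole H3K27me3 set covered 91.7 Mb with Dox and 65.9 Mb at 3 d, and the part of this in the region length was not tested. E2f8 was also the only member without promoter H3K27Ac, a mark of active promoters and enhancers, in either condition. That mark was found at 48.0% of coding genes with Dox and 45.1% without it. Across the E2f8 gene, H3K27Ac covered 0 bases with Dox and 3120 bases, 20.6% of the gene, at 3 d.

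H3K27Ac over the E2f3 gene went from 25 regions and 14473 bases, 18.3% of the gene, to 3 regions and 2488 bases, 3.15%, at 3 d. Over E2f6 it went from 50.0 to 9.82% of the gene and over E2f1 from 31.6 to 11.3%. Over Rb1 it was 6.78 and 6.50%, and over E2f4 it went from 39.8 to 64.4%. The whole H3K27Ac set covered 73.1 Mb with Dox and 49.2 Mb at 3 d and the part of this difference in set size in the coverage of single genes was not tested.

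Of the 2455 Pax7 sites listed for +Dox cells, at least 1 lay within 100 kb of a start site of 3 of the 10 members (E2f1, E2f6 and E2f8), against 18.5% of coding genes. None lay inside a member gene, and the nearest sites of E2f7, E2f3 and Rb1 were 133, 634 and 127 kb away. Near E2f8 the site chr7:56220976-56221850, 84.0 kb from the start site, had an ATAC-seq enrichment of 79.6 with Dox, 4.79 at 12 h, 2.71 at 24 h, 4.53 at 3 d, 13.2 in iPax7 myotubes and no peak in satellite cells. The second E2f8 site, chr7:56178090-56178822, had a peak of 17.7 with Dox and none in the other 5 conditions. Near E2f1 the site chr2:154438850-154439994, which lies within Zfp341, had 45.4 with Dox, 20.3 at 12 h, 43.7 at 24 h, 32.3 at 3 d and 12.1 in satellite cells. The nearest E2f6 site, chr12:16860003-16860469, had 29.6 with Dox and 26.4 at 3 d. The sites thus differed in whether the ATAC-seq peak was still called after Dox was removed. Enrichments were not scaled between peak sets. That of the E2f3 promoter was 93.5 with Dox and 46.7 at 12 h, in percentiles 97.0 and 96.1.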

How the data were processed

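The authors deposited HTSeq counts of reads per gene for RNA-seq. They deposited ATAC-seq peaks, called by MACS2 on merged replicates in mm9, with fold enrichment as a ratio and with -log10 p- and q-values. Histone regions and Pax7 sites were called by Qeseq and hold coordinates. The submitters' processing notes name mm9, TopHat2 2.0, Bowtie2 2.2 and 2.2.6, HTSeq 0.6 and MACS2 2.0.10. Unassigned reads were left out. The members and gene lists were chosen with earlier results of these data known. Replicates are the files of each RNA-seq sample.

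Counts were fitted with edgeR 4.0.16 in R 4.3.3 (filterByExpr, TMM, quasi-likelihood test, all 8 libraries, Benjamini-Hochberg adjustment over 14836 genes, threshold 0.05). edgeR was tested on simulated data. DESeq2 1.42.0 was an alternative. Libraries of 39010958 to 54674619 counts gave 35.28 to 63.86 counts per CPM. Genes named are all members, Rbl2, Tfdp1 and Tfdp2, the 2 highest and 2 lowest log2 fold changes of each list on withdrawal, and the 3 closest profiles. Lengths and start sites came from GENCODE M1 (NCBIM37, the same assembly as mm9). No peak used lay past a chromosome end. Files of C2C12 cells were not used here.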

Additional observations from a re-analysis of the deposited data

How the results depend on the processing

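E2f7 lower and Rb1 higher on withdrawal, Rb1 higher in -Dox than in satellite cells, and the 4 members higher in +Dox than in satellite cells kept their calls under all 15 alternatives run on each. The limits are 2 -Dox libraries, a single peak set per condition, and satellite libraries with more reads not uniquely placed and with genes of other cell types. In all, 110 of 120 counts or ratios stayed within 1.5 times (counts) or the replicate SD (ratios) of the reported value. Of 450 log2 fold changes of single members, 406 kept their direction and side of the threshold.

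Members lower on withdrawal numbered 2, from 1 to 2 when 1 library was left out, and 4 when replicate number was added as a block (E2f1, E2f3, E2f7 and Rbl1). Deviations from the group means hardly correlated between -Dox and +Dox libraries of the same number (r = -0.0264 and 0.00397). With 2 -Dox libraries these deviations mirror each other, so they cannot show whether the numbers pair libraries. +Dox library 3 had no -Dox library of its number. Over all genes the block gave 2023 higher and 1994 lower against 691 and 451. DESeq2 gave 1186 and 1098, and the 2 groups fitted alone 1128 and 1027. Leaving out 1 library gave 363 to 823 higher and 125 to 621 lower. Members higher in -Dox than in satellite cells numbered 3, from 1 to 3 when 1 library was left out and 1 with the 2 groups fitted alone, and DESeq2 called 1 member lower (E2f5). With the block E2f1 was not called there (adjusted p = 0.229, edgeR). The ratio of the highest to the lowest +Dox member per kb was 10.1, and 6.96 with the longest transcript length. The cause of these shifts was not tested.

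Changes of sign occurred only in log2 fold changes that were not called. Ranges with 1 library left out follow in brackets where the sign changed. On withdrawal E2f6 (-0.03) was at 0.02 with RLE factors and 0.02 with DESeq2, and at 0.01 to 0.33 without +Dox library 1, +Dox library 2 (0.04 and 0.01) or -Dox library 2 [-0.48 to 0.33], and E2f2 (-0.23) was at 0.11 without -Dox library 1 [-0.66 to 0.11]. For +Dox against satellite cells E2f4 (-0.05) was at 0.35 with total counts, 0.02 with the 2 groups alone, 0.26 with the block, and 0.09, 0.05, 0.27 and 0.17 without +Dox library 1 or 2 or satellite library 2 or 3 [-0.48 to 0.27]. Rb1 (-0.09) was at 0.30 with total counts and 0 without satellite library 2 [-0.21 to 0]. For -Dox against satellite cells E2f3 (-0.02) was at 0.16 with total counts, 0.04 with the 2 groups alone, 0.20 with the block, and 0.04, 0.03, 0.06 and 0.14 without +Dox library 1 or 2, -Dox library 2 or satellite library 3 [-0.12 to 0.14]. E2f7 (-0.10) was at 0.06 with total counts, 0.53 without -Dox library 2 and 0.05 without satellite library 1 [-1.06 to 0.53]. E2f4 (0.42) was at -0.01 without satellite library 1 [-0.01 to 0.74] and E2f6 (0.32) at -0.13 without -Dox library 1 [-0.13 to 0.72].

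Promoter peak counts were within 1.5 times of each other with a window of 500 bases or ATAC-seq peaks of -log10 q of at least 5, and the same 3 members had a Pax7 site within 50 kb, against 10.9% of coding genes.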
